A study of Bos taurus and Ovis aries and Capra hircus with 18 samples.

Results

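The 10 genes described here mark the endothelium, the cell layer that lines blood vessels. PECAM1, CDH5, KDR, FLT1, TIE1, TEK, ESAM and VWF are 8 pan-endothelial genes, made by vessels of most tissues, and CLDN5 and MFSD2A are 2 genes of the vessels that form the blood-brain barrier. They were taken by name. Their cattle genes were found by position, and their partners in the other species by exon structure and gene order. All 10 were found in each species, among 14140 genes matched in the 3 species and 27607 cattle, 26478 sheep and 27271 goat genes counted.

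The samples were brain and muscle of adult cattle, sheep and goat, in 6 groups of 3 libraries named A, B and C. The labels give no brain region, no named muscle, no breed and no treatment. They do not say whether the libraries of a group came from separate animals, so the p-values below measure only the spread between these libraries. RNA came from frozen tissue, was enriched for poly(A) RNA with oligo(dT) beads and was copied with random hexamers, and the total counts per library ran from 20730803 to 58514630.

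Endothelial cells hold together through junctions built from cadherin, immunoglobulin-type adhesion molecules and claudins, and they sense vascular growth factors through receptor tyrosine kinases. In brain the same cells form a barrier: their tight junctions are rich in claudin-5, vesicle traffic across them is low, and dedicated carriers bring in nutrients. Muscle capillaries are continuous but lack that barrier and exchange fuels such as fatty acids with the fibres.

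Levels are CPM per kb (counts scaled to library size and divided by the kilobases of exon), scaled with the trimmed mean of M-values (TMM) over the matched genes. A difference is the log2 difference, brain minus muscle, from edgeR's quasi-likelihood test, with its standard error. A gene was called where the Benjamini-Hochberg adjusted p was below 0.05 and the difference at least 1 on the log2 scale. TMM places the median gene close to 0 in each tissue comparison: 0.09 in cattle, 0.17 in sheep, 0.12 in goat and 0.06 over species. With library totals alone, the median gene itself lay at 0.76, 1.11, 0.86 and 0.99 towards brain. Every direction between tissues given below is thus a position relative to the middle of all genes, and signs of the 10 genes that turn with library totals alone are named beside the gene.

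A pair of libraries stood apart from their groups. Sheep brain C had Spearman correlations of 0.834 and 0.836 with its partners, which had 0.989 with each other. Goat muscle C had 0.952 and 0.944, against 0.990 between goat muscle A and B. The other 4 groups ran from 0.965 to 0.994. Results that rest on those libraries are given with and without them. The tissue labels matched the defining markers: the summed level of RBFOX3, SNAP25, SYP and ENO2, of neurons, was 1256 to 2520 CPM per kb in brain libraries and at most 1.78 in muscle. CKM, ACTA1, TNNT3 and MYH1, of muscle fibres, summed to 63210 to 172200 in muscle and to at most 20.3 in brain.

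PECAM1 encodes an adhesion molecule at the contacts between endothelial cells, and in the cattle count file it lies on chromosome 19 from 48541625 to 48619840 on the minus strand, with 20 exons (build ARS-UCD1.2, per the submitters' processing notes). Its level in libraries A, B and C of brain was 17.0, 20.4 and 8.43 CPM per kb in cattle, 14.5, 11.03 and 7.42 in sheep, and 17.4, 9.37 and 10.53 in goat. In muscle it was 37.2, 52.0 and 42.6 in cattle, 109.1, 107.4 and 111.8 in sheep, and 57.7, 75.4 and 143.8 in goat. Every muscle library lay above every brain library, in all 3 species. The mean in muscle was 2.88 times that in brain in cattle, 9.95 times in sheep and 7.43 times in goat. PECAM1 was called higher in muscle in each, at -1.42 ± 0.30 in cattle (adjusted p = 0.00263), -3.31 ± 0.34 in sheep (adjusted p = 0.000365) and -2.85 ± 0.39 in goat (adjusted p = 0.000239). Without sheep brain C the sheep difference was -3.09, and without goat muscle C the goat difference was -2.43. Fewer vessel cells and less RNA of the gene per vessel cell cannot be told apart in bulk tissue, here or for any gene below. In cattle, an exon of PECAM1 overlaps a gene on the opposite strand, and strandedness of the counting is not given in the sources used here.

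CDH5, the endothelial cadherin (VE-cadherin) of adherens junctions, lies on cattle chromosome 18 from 34122601 to 34160211. It ran from 3.29 to 17.1 CPM per kb over the 9 brain libraries and from 20.3 to 71.4 over the 9 muscle libraries, with no overlap. It was higher in muscle in sheep (-2.93 ± 0.54, adjusted p = 0.00427) and goat (-2.18 ± 0.41, adjusted p = 0.00141). In cattle the difference was -0.78 ± 0.41 and was not called (adjusted p = 0.116), although the libraries of the tissues did not overlap. Cattle brain C, at 4.40, lay far below cattle brain A and B, at 14.3 and 17.1.

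ESAM, an immunoglobulin-type molecule of endothelial tight junctions and platelets, lies on cattle chromosome 29 from 28232748 to 28241470. Cattle brain A, B and C had 11, 13.4 and 3.51 CPM per kb and cattle muscle 14.6, 15.2 and 16.1. Sheep brain had 37.6, 24.6 and 63.9, and sheep muscle 93.0, 127.2 and 103.7. Goat brain had 14.04, 10.6 and 7.20, and goat muscle 19.3, 18.7 and 53.0. The tissues did not overlap in any species, but goat muscle C lay far above its partners and sheep brain C was the highest brain library. ESAM was called higher in muscle in sheep (-1.36 ± 0.39, adjusted p = 0.0263) and goat (-1.46 ± 0.43, adjusted p = 0.0166). In cattle it was not called, at -0.61 ± 0.41 (adjusted p = 0.201), a sign that turned to 0.02 with library totals alone. The sheep call was lost when any library other than sheep brain C was left out, at -1.48 to -1.09 (adjusted p from 0.0575 to 0.0920), and without sheep brain C it was -1.79 (adjusted p = 0.000333). The goat call was lost without goat brain B (-1.47, adjusted p = 0.0528), goat brain C (-1.24, adjusted p = 0.0672) or goat muscle C (-0.85). The goat gene model of ESAM shares exons with 1 other gene on the same strand, so reads there cannot be assigned to either with certainty.

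KDR encodes VEGF receptor 2, the main signalling receptor for vascular endothelial growth factor A, and lies on cattle chromosome 6 from 70564927 to 70612683. In brain its level was 5.46, 6.76 and 3.78 CPM per kb in cattle libraries A, B and C, 8.26, 5.93 and 3.68 in sheep, and 9.14, 4.14 and 4.14 in goat. In muscle it was 5.32, 7.48 and 5.56 in cattle, 28.2, 29.6 and 22.6 in sheep, and 9.94, 11.7 and 18.2 in goat. The brain levels of the species lay in one range, and sheep muscle stood above all other groups. KDR was higher in muscle in sheep (-2.16 ± 0.37, adjusted p = 0.00316) and goat (-1.15 ± 0.37, adjusted p = 0.0220). In cattle the tissues overlapped and the difference was -0.09 ± 0.23 (adjusted p = 0.734), which turned positive with library totals alone (0.57), without cattle brain C (0.15) and without cattle muscle B (0.07). The goat difference fell under the 2-fold limit without goat brain B (-0.96), goat brain C (-0.95) or goat muscle C (-0.91).

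FLT1 encodes VEGF receptor 1, which binds the same growth factor and in its soluble form withholds it from KDR. It lies on cattle chromosome 12 from 31624125 to 31829369. The level ran from 3.41 to 28.1 CPM per kb in brain and from 12.5 to 32.3 in muscle, and the tissues overlapped in cattle and goat. No species gave a call: the difference was 0.40 ± 0.35 in cattle (adjusted p = 0.325), -1.26 ± 0.59 in sheep (adjusted p = 0.116) and -0.33 ± 0.38 in goat (adjusted p = 0.477). By library totals alone the goat sign turned to 0.43 and the cattle value reached a call towards brain, at 1.04 (adjusted p = 0.0157). Brain spread widely: sheep brain C had 3.41 beside 18.6 and 13.0, and cattle brain C had 7.75 beside 23.5 and 20.4.

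TEK, the receptor TIE2 that binds angiopoietins, lies on cattle chromosome 8 from 17050131 to 17153178. Its level ran from 1.99 to 10.7 CPM per kb in brain and from 9.24 to 19.4 in muscle. It was higher in muscle in sheep (-1.67 ± 0.56, adjusted p = 0.0431) and goat (-1.07 ± 0.33, adjusted p = 0.0203). In cattle it was -0.60 ± 0.30 and not called (adjusted p = 0.0981), with a sign that turned to 0.04 with library totals alone. The sheep call was lost without sheep brain B or without any 1 of the 3 sheep muscle libraries, at -1.74 to -1.64 (adjusted p from 0.0923 to 0.107). The goat difference fell under the 2-fold limit without goat brain B (-0.88), goat brain C (-0.91) or goat muscle C (-0.92).

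TIE1, the related receptor with no ligand of its own that modulates TEK signalling, lies on cattle chromosome 3 from 102694863 to 102714614. Its level in brain was 4.78 to 7.08 CPM per kb in cattle, 8.69 to 11.6 in sheep and 5.23 to 8.33 in goat. In muscle it was 4.65 to 6.68, 11.98 to 13.5 and 10.7 to 16.2. Only goat gave a call, at -1.02 ± 0.28 (adjusted p = 0.0116), and it fell under the limit without goat brain B (-0.92), goat brain C (-0.89) or goat muscle C (-0.89) and with no filter on low counts (-0.95). Cattle had 0.22 ± 0.21 (adjusted p = 0.352). Sheep had -0.32 ± 0.26 (adjusted p = 0.352), a sign that turned to 0.62 with library totals alone.

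VWF encodes von Willebrand factor, the clotting glycoprotein that endothelial cells store in Weibel-Palade bodies, and lies on cattle chromosome 5 from 104221024 to 104345680. In brain A, B and C it had 7.47, 7.44 and 4.11 CPM per kb in cattle, 20.6, 11.1 and 23.8 in sheep, and 15.7, 7.25 and 9.46 in goat. In muscle it had 22.3, 15.5 and 25.2 in cattle, 52.5, 50.6 and 59.4 in sheep, and 38.2, 36.8 and 59.6 in goat. The tissues did not overlap in any species, and muscle was 3.32, 2.93 and 4.15 times brain in cattle, sheep and goat. VWF was called in all of them, at -1.62 ± 0.27 (adjusted p = 0.000695), -1.55 ± 0.34 (adjusted p = 0.00877) and -2.01 ± 0.34 (adjusted p = 0.000735). Platelets also carry VWF and ESAM. Of 4 platelet markers listed only ITGA2B was matched, and it was at 0.93 to 5.97 CPM per kb in brain libraries and 2.41 to 6.58 in muscle, with goat muscle C the highest. Its part in the VWF and ESAM values was not tested.

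**Figure D1:**
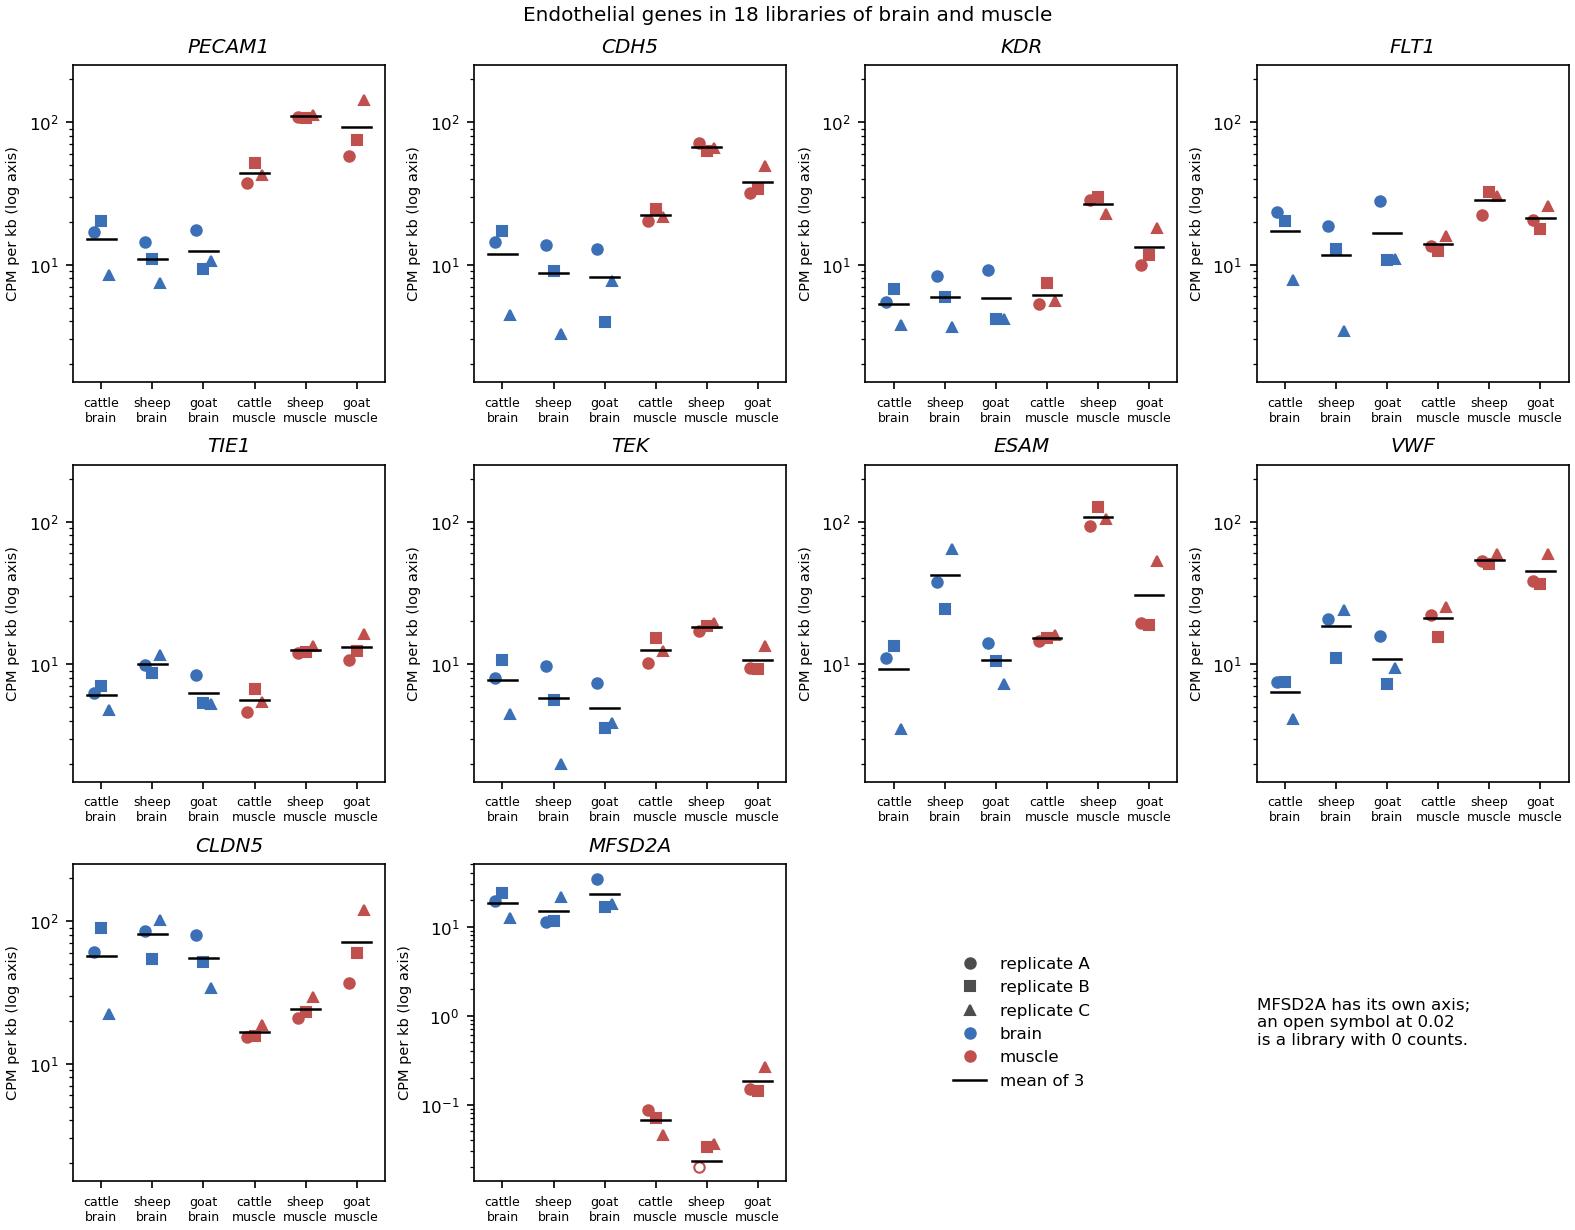
Level of each gene in every library, in CPM per kb of exon on a log axis, by species and tissue (blue brain, red muscle; circle, square and triangle are replicates A, B and C; bar, mean of 3). PECAM1, CDH5, ESAM and VWF lie higher in every muscle library than in any brain library of the same species, and MFSD2A, on its own axis, lies near 0 in muscle. The share of all genes that separate the tissues likewise was not counted.

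Counted together, 2 of the 8 pan-endothelial genes were called higher in muscle in cattle (PECAM1 and VWF), 6 in sheep (all but FLT1 and TIE1) and 7 in goat (all but FLT1), and none higher in brain. Among all genes tested, 25.3% were called higher in muscle in cattle, 19.2% were in sheep and 23.2% were in goat. In cattle the count, 2 of 8, is thus near that background. The median of the 8 was -0.61 in cattle, -1.61 in sheep and -1.31 in goat, beside 0.09, 0.17 and 0.12 over all genes. Without sheep brain C the sheep differences were -2.54 for CDH5, -1.91 for KDR, -1.26 for TEK and -1.76 for VWF, all still called, and those of FLT1 and TIE1 were -0.83 and -0.43, under the 2-fold limit. In goat, 3 genes (PECAM1, CDH5 and VWF) were left when goat brain B, goat brain C or goat muscle C was left out. Goat CDH5 and VWF were at -2.01 and -1.80 without goat muscle C. Scaled by library totals alone, the count was 0 in cattle, 3 in sheep and 3 in goat. Of all genes, 2333 of 16428, 1415 of 15616 and 2023 of 15825 were then higher in muscle.

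Over the 3 species, with species as a term, 6 of the 8 were higher in muscle, where 23.3% of 12743 genes were. PECAM1 had -2.59 ± 0.30 (adjusted p = 2.84e-07), CDH5 -2.02 ± 0.36 (adjusted p = 6.76e-05) and VWF -1.78 ± 0.21 (adjusted p = 3.33e-07). KDR (-1.19 ± 0.29), ESAM (-1.20 ± 0.28) and TEK (-1.16 ± 0.27) were nearer the 2-fold limit, with adjusted p of 0.00118, 0.000848 and 0.000791. Without sheep brain C, KDR (-0.99) and TEK (-0.96) fell under it, and without goat muscle C, ESAM did (-0.98). FLT1 (-0.44 ± 0.33, adjusted p = 0.231) and TIE1 (-0.42 ± 0.19, adjusted p = 0.0542) were not called, and both signs turned with library totals alone, to 0.50 and 0.52, where only PECAM1 and CDH5 kept a call.

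**Figure D2:**
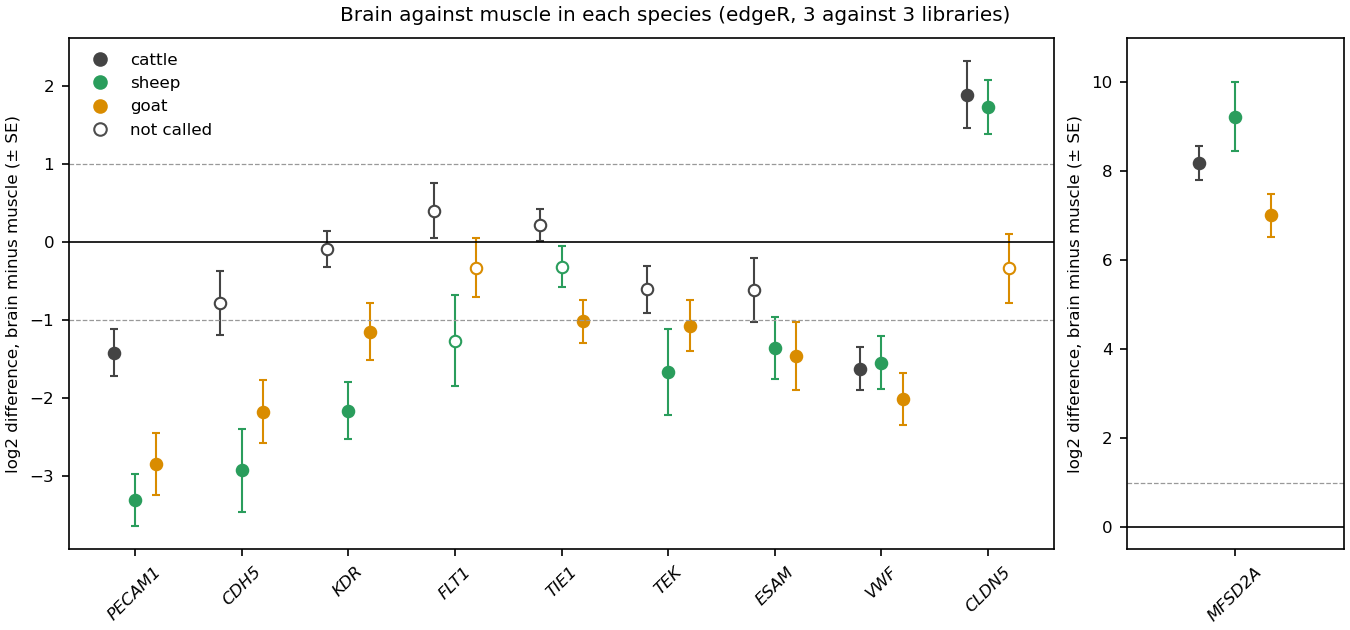
Log2 difference, brain minus muscle, with its standard error for each gene and species, with MFSD2A on a wider axis. Filled points are called, open ones are not, and dashed lines mark 2-fold. The filled MFSD2A points are a description with no test, since it passed the filter only through brain. The pan-endothelial points lie at or below 0 except FLT1 and TIE1 of cattle, CLDN5 lies above 0 except in goat, and with library totals alone the signs of cattle KDR, TEK and ESAM, sheep TIE1 and goat FLT1 and CLDN5 turn.

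CLDN5 encodes claudin-5, the tight junction protein that seals the blood-brain barrier to small molecules and is present at lower amounts in vessels elsewhere. It is a single-exon gene, on cattle chromosome 17 from 72734557 to 72735831, minus strand, and in sheep and goat it was taken as the only gene between CDC45 and SEPTIN5. The sheep model lies on chromosome 17 from 82192929 to 82193585. The sheep and goat models hold 657 bases against 1275 in cattle, so levels between cattle and the other species depend on the model. In brain A, B and C its level was 60.7, 88.8 and 22.1 CPM per kb in cattle, 85.6, 54.3 and 102.4 in sheep, and 79.2, 51.4 and 34.0 in goat. In muscle it was 15.3, 15.6 and 18.8 in cattle, 20.8, 22.9 and 29.4 in sheep, and 36.5, 59.2 and 119.7 in goat. Brain lay above muscle with no overlap in cattle and sheep, by 3.45 and 3.32 times, while the tissues of goat overlapped. CLDN5 was called higher in brain in cattle (1.89 ± 0.43, adjusted p = 0.00371) and sheep (1.73 ± 0.35, adjusted p = 0.00586; 1.53 without sheep brain C). In goat the difference was -0.34 ± 0.45 (adjusted p = 0.538), which turned to 0.19 without goat muscle C and to 0.45 with library totals alone. Both goat muscle A and B, at 36.5 and 59.2, lay above every cattle and sheep muscle library.

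MFSD2A encodes the carrier of lysophosphatidylcholine-bound docosahexaenoic acid, which also holds down vesicle traffic across brain endothelium. It lies on cattle chromosome 3 from 106122567 to 106136408. In brain it had 19.4, 23.8 and 12.5 CPM per kb in cattle, 11.4, 11.7 and 21.8 in sheep, and 34.6, 16.7 and 18.2 in goat. In muscle the 3 libraries together held 13 counts in cattle, 4 in sheep and 14 in goat, beside 6319, 3135 and 3494 in brain, and sheep muscle A held 0. The brain level over the muscle level, from counts pooled by group, was 276 in cattle (exact 95% Poisson interval 161.4 to 518.3). It was 634.2 in sheep (247.7 to 2327) and 132.1 in goat (78.7 to 241.6), and these intervals cover counting error only. It passed the filter on low counts only through brain, so a difference was bound to be found, and its values between tissues are a description with no test. Of the 10 genes it was the sole one near 0 in muscle.

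CLDN5 was thus called in cattle and sheep, where 33.9% and 28.5% of all genes were higher in brain, and not in goat, where 31.4% were. Over species it was at 1.07 ± 0.37 (adjusted p = 0.0155), beside 31% of all genes higher in brain, and MFSD2A was at 7.95 ± 0.40. The CLDN5 value fell under the 2-fold limit, to between 0.88 and 0.999, without cattle brain B, cattle muscle A or B, or sheep muscle A or B, and was 1.30 without goat muscle C.

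The barrier genes were also set against the pan-endothelial genes of the same library. CLDN5 minus the mean log2 level of the 8 pan-endothelial genes was 2.53 ± 0.38 in cattle brain, 2.89 ± 0.73 in sheep brain and 2.63 ± 0.36 in goat brain (mean ± SD, n = 3). In muscle it was 0.20 ± 0.16 in cattle, -0.75 ± 0.23 in sheep and 1.36 ± 0.47 in goat. All 9 brain libraries, at 2.15 to 3.73, lay above all 9 muscle libraries, at -0.89 to 1.77, goat included. In goat CLDN5 itself was not higher in brain, and the separation comes from the subtracted pan-endothelial mean, 3.06 in goat brain and 4.63 in goat muscle. Goat muscle was thus the nearest to brain by this measure, and its library A, the lowest, had 0.85. Against PECAM1 alone the same held, with 1.38 to 3.77 in brain and -2.39 to -0.26 in muscle.

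MFSD2A minus the pan-endothelial mean was 1.08 ± 0.22 in cattle brain, 0.45 ± 0.96 in sheep brain and 1.40 ± 0.01 in that of goat. The goat brain libraries ran from 1.39 to 1.41 by this measure, and from 0.78 to 0.99 against PECAM1 alone. In sheep brain the 3 values were -0.38, 0.22 and 1.503, with sheep brain C the highest. In muscle the values were -6.43, -8.38 and -6.47 in cattle, sheep and goat, but with so few counts they rest on the added 0.1 CPM per kb. No test was run on these measures.

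**Figure D3:**
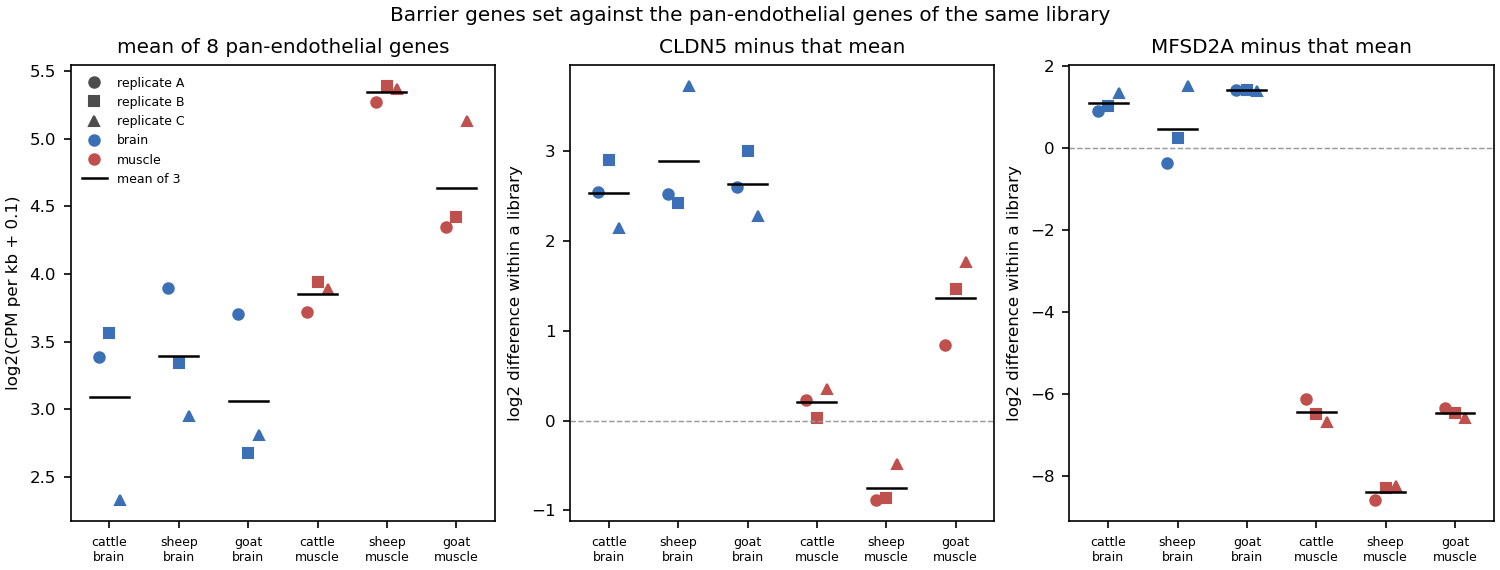
For each library, the mean log2 level of the 8 pan-endothelial genes (left), and CLDN5 (middle) and MFSD2A (right) minus that mean, on log2 scales, with the mean of each group as a bar (blue brain, red muscle; symbols are replicates A, B and C). CLDN5 lies between 2.15 and 3.73 in brain and between -0.89 and 1.77 in muscle, with goat muscle the nearest to brain.

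Whether the tissue difference differed between species was tested as an interaction over the 18 libraries. By the F test over both interaction terms, where an adjusted p below 0.05 alone made a call, 3 of the 10 genes were called, and 25.4% of all genes were: PECAM1 (adjusted p = 0.0406), KDR (adjusted p = 0.0264) and CLDN5 (adjusted p = 0.0323). Between cattle and sheep, brain minus muscle was larger in cattle for PECAM1 (1.79 ± 0.53, adjusted p = 0.0242) and KDR (1.97 ± 0.51, adjusted p = 0.0123). These are 2 of 10 genes, beside 8.71% of all genes in that direction and 20% called in either direction, so the count is near background. CDH5 gave 2.05 ± 0.71 and missed the threshold (adjusted p = 0.0503), and it was called with DESeq2 (adjusted p = 0.0191) and with relative log expression (RLE) scaling (adjusted p = 0.0461). The KDR call held without any 1 library. That of PECAM1 was lost without cattle brain A or B or cattle muscle A or C, at 1.53 to 1.77 (adjusted p from 0.0548 to 0.0700).

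Between cattle and goat, brain minus muscle was larger in cattle for TIE1 (1.17 ± 0.36, adjusted p = 0.0387) and CLDN5 (2.18 ± 0.66, adjusted p = 0.0381). These 2 of the 10 stand beside 6.87% of all genes in that direction and 13.6% called in either direction. The CLDN5 call was lost without cattle brain A or B, goat brain B or C, any 1 cattle muscle library or goat muscle C, at 1.6 to 2.28 (adjusted p from 0.0660 to 0.118). The TIE1 call was lost without cattle brain A or B, goat brain B or C, cattle muscle A or C, any 1 sheep muscle library, or goat muscle B or C, at 1.003 to 1.22 (adjusted p from 0.0508 to 0.101). Between sheep and goat edgeR called none of the 10, where 7.38% of all genes were called. CLDN5 came nearest, at 2.12 ± 0.66 (adjusted p = 0.0606), with DESeq2 calling it (adjusted p = 0.0140), and 2 of the 10, CLDN5 and MFSD2A, had an unadjusted p below 0.05. The MFSD2A value rests on 4 counts in sheep muscle and 14 in goat muscle, so nothing is drawn from it.

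The same fit gave the differences between species within a tissue. Species, gene model and sampling cannot be told apart in these contrasts. In muscle, 6 genes were lower in cattle than in sheep, beside 16.7% of all genes lower in cattle and 29.9% called in either direction. KDR differed by -2.13 ± 0.37 (adjusted p = 0.000350), ESAM by -2.82 ± 0.50 (adjusted p = 0.000414) and TIE1 by -1.17 ± 0.26 (adjusted p = 0.00203). VWF differed by -1.37 ± 0.35, CDH5 by -1.59 ± 0.51 and PECAM1 by -1.32 ± 0.38, with adjusted p of 0.00599, 0.0215 and 0.0116. The PECAM1 call was lost without cattle muscle A (-1.21, adjusted p = 0.0509). The CDH5 call was lost without cattle muscle A or C or sheep muscle A (-1.57 to -1.53, adjusted p from 0.0532 to 0.0702), and with no length in the offset (-1.197, adjusted p = 0.0728). The median of the 8 pan-endothelial genes was -1.34, beside -0.05 over all genes.

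In muscle, 5 genes were lower in cattle than in goat, beside 17.2% of all genes lower in cattle and 34.1% called in either direction. They were CLDN5 (-2.12 ± 0.48, adjusted p = 0.00231), TIE1 (-1.23 ± 0.26, adjusted p = 0.00114), PECAM1 (-1.07 ± 0.37), KDR (-1.12 ± 0.36) and VWF (-1.09 ± 0.35). PECAM1 lost its call without cattle muscle A, cattle muscle C or goat muscle C (-1.05 to -0.60) and, at -0.97, with no length in the offset. KDR lost it without the same libraries (-1.05 to -0.83), and VWF without cattle muscle B or goat muscle C (-0.92 and -0.84). Between sheep and goat muscle, ESAM (1.83 ± 0.48, adjusted p = 0.00910) and KDR (1.01 ± 0.36, adjusted p = 0.0445) were higher in sheep, beside 13.2% of all genes. CLDN5 (-1.56 ± 0.48, adjusted p = 0.0207) was higher in goat, beside 10.8%. MFSD2A, at -2.87 ± 0.75, also passed both limits, but on 4 against 14 counts, so its value is a description with no test. With no length in the offset ESAM had 0.56 (adjusted p = 0.404). CLDN5 lost its call without sheep muscle A or B (-1.46 and -1.52) or goat muscle C (-0.97). KDR lost it with RLE scaling, DESeq2, library totals alone, no length in the offset and first-pass matches only, at 0.59 to 0.94. It was lost too without cattle brain A, sheep brain B or C, any 1 cattle or sheep muscle library, or goat muscle A or B, at 0.84 to 1.12.

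In brain, ESAM (-2.18 ± 0.49, adjusted p = 0.00322) and VWF (-1.54 ± 0.35, adjusted p = 0.00337) were lower in cattle than in sheep. They stand beside 17.6% of all genes lower in cattle and 26.6% called in either direction, and both calls held without any 1 library. ESAM was higher in sheep than in goat (1.99 ± 0.49, adjusted p = 0.00720), 1 gene beside 13.3% of all genes (18.8% in either direction). With no length in the offset ESAM was 0.71 there (adjusted p = 0.309). Between cattle and goat brain edgeR called none of the 10, where 24% of all genes were called, DESeq2 none, and 1 of the 10, VWF, had an unadjusted p below 0.05. With no length in the offset ESAM (-1.37) and VWF (-1.03) were called there, beside 1374 of 12743 genes lower in cattle and 1267 higher. The exonic length of ESAM was 1854 bases in cattle, against 1283 in sheep and 3377 in goat. The median of the 8 pan-endothelial genes in brain was 0.13 for cattle minus sheep, -0.0041 for cattle minus goat and 0.15 for sheep minus goat.

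The spread between libraries differed by gene and group. The coefficient of variation of CDH5 was 55.9%, 60.6% and 54.9% in cattle, sheep and goat brain, and 10.3% and 6.50% in cattle and sheep muscle. PECAM1 had 40.3%, 32.3% and 34.9% in brain, 17% in cattle muscle and 2.03% in sheep muscle, but 49.3% in goat muscle. For TIE1 it was 19.3% in cattle brain and 18.4% in cattle muscle. The libraries of a group moved over several genes at once. Cattle brain C lay below its group mean for all 10, at -1.2 (log2) for CDH5, -1.17 for ESAM and -1.15 for CLDN5. Goat brain A lay above its group mean for all 10, by 0.91 for FLT1 and 0.81 for CDH5. Goat muscle C did so too, by 0.98 for ESAM, 0.91 for CLDN5 and 0.75 for PECAM1.

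Sheep brain C did not move one way. Relative to the group mean FLT1 was at -1.44 there, TEK at -1.22 and CDH5 at -1.16, while ESAM was at 0.71, MFSD2A at 0.61, VWF at 0.44 and CLDN5 at 0.39. It also had the lowest summed neuron level of the brain libraries, 1256 CPM per kb beside 2358 and 1958 in its partners, and an ITGA2B level of 5.97 beside 1.73 and 1.09. The part of these in its endothelial values was not tested. Over all 18 libraries, as deviations from the group means, PECAM1 correlated with KDR at 0.914, with CDH5 at 0.876 and with CLDN5 at 0.748. ESAM correlated with CLDN5 at 0.925 but with TEK at 0.244. Without sheep brain C, the last was 0.816 and PECAM1 with CLDN5 0.912. The libraries share depth and scaling, and these are descriptions.

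**Figure D4:**
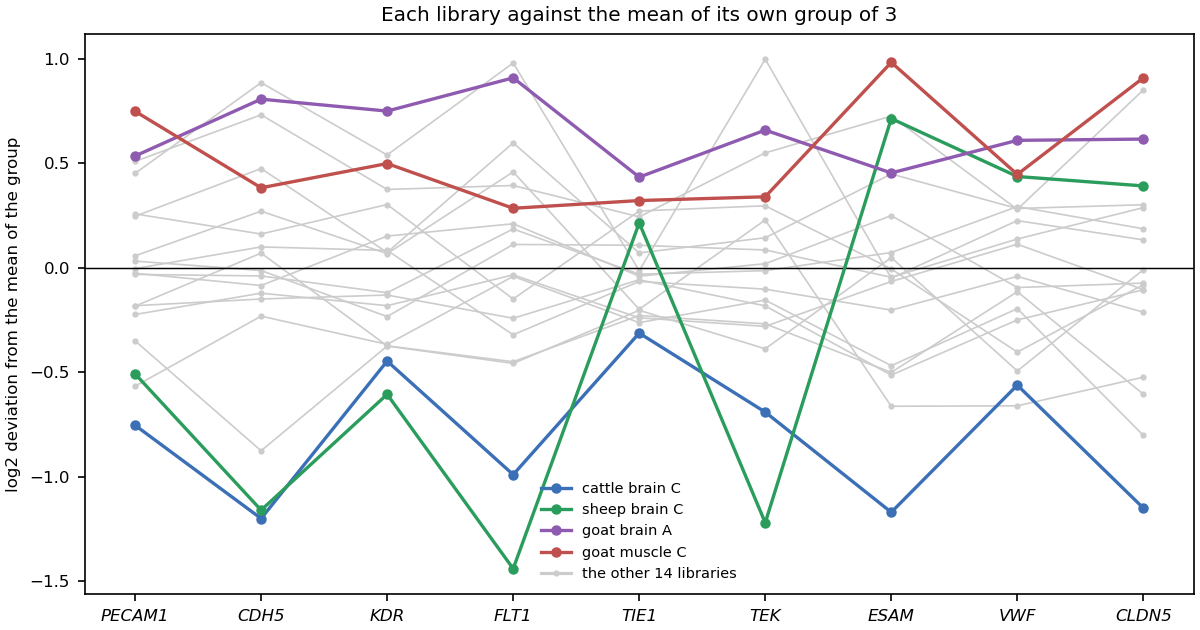
Deviation of each library from the mean of its own group of 3, in log2 of CPM per kb, for 9 genes, with 4 libraries in colour and the other 14 in grey (lines only join the points of a library). Cattle brain C lies below 0 and goat brain A and goat muscle C above 0 for every gene, while sheep brain C is low for FLT1, TEK and CDH5 and high for ESAM, VWF and CLDN5.

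The order of levels within a group also differed between the tissues. CLDN5 had the highest mean in each brain group: 57.2 ± 33.5 CPM per kb in cattle, 80.8 ± 24.4 in sheep and 54.9 ± 22.8 in goat (SD, n = 3). MFSD2A came next in cattle and goat brain (18.6 ± 5.69 and 23.2 ± 9.96) and ESAM in sheep brain (42.0 ± 20.1). The libraries of neighbours in the order overlapped throughout cattle and goat brain, and in sheep brain all but ESAM and VWF did. PECAM1 had the highest mean in each muscle group: 43.9 ± 7.48 in cattle, 109.4 ± 2.22 in sheep and 92.3 ± 45.5 in goat. In sheep muscle it overlapped with ESAM (108.0 ± 17.5), and then CDH5 (66.7 ± 4.34) and VWF (54.1 ± 4.65) followed without overlap. MFSD2A was last in each muscle group.

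Other genes of endothelial adhesion and signalling leaned the same way over species. Of 13 receptor and junction genes tested of 16 listed, 8 were higher in muscle, beside 23.3% of all genes, and none in brain, with a median of -1.43 beside 0.06 over all genes. The sialomucins CD34 (-2.77 ± 0.22) and EMCN (-3.31 ± 0.33) and the ephrin receptor EPHB4 (-1.79 ± 0.22) were among them, with PALMD at -3.79 ± 0.23. NOS3, the endothelial nitric oxide synthase (-0.08 ± 0.23, and 0.86 with library totals alone), and the secreted EGFL7 (0.12 ± 0.32) were not called. With library totals alone 4 were higher in muscle and 2, EGFL7 and JAM2, in brain, beside 1252 and 6243 of 12743 genes. PTPRB, a phosphatase that acts on TEK, was called at -1.14 ± 0.26 but not without sheep brain C (-0.98), where ROBO4 and JAM2 were called instead, JAM2 towards brain (1.09).

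Of 12 ligands and coreceptors of the VEGF, angiopoietin and Notch pathways tested of 14 listed, 5 were higher in muscle and 1 in brain, beside 23.3% and 31% of all genes, with a median of -0.9996. VEGFA, the ligand of KDR and FLT1, was at -2.95 ± 0.49, the coreceptor NRP1 at -3.89 ± 0.28 and VEGFC at -1.61 ± 0.23. By species VEGFA was at -0.71 in cattle, not called there, -4.58 in sheep and -3.26 in goat. NRP2, its relative, was higher in brain at 1.38 ± 0.37. The TEK ligands ANGPT1 (-1.42 ± 0.73, adjusted p = 0.0911) and ANGPT2 (-0.68 ± 0.37, adjusted p = 0.104; 0.24 with library totals alone) were not called, ANGPT1 being at 2.04 in cattle and -2.88 in sheep. Of 7 endothelial transcription factors tested of 13 listed, 3 were higher in muscle, KLF4 (-2.72 ± 0.34), GATA2 (-1.25 ± 0.23) and ETS1 (-1.58 ± 0.37), and HEY1, a Notch target, was higher in brain (1.99 ± 0.26), beside the same shares of all genes. By library totals alone, 3 ligands and coreceptors and 1 factor were higher in muscle, beside 1252 of 12743 genes, and the medians were -0.08 and 0.08.

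Of 14 barrier carriers and junction genes tested of 17 listed, 9 were higher in brain and 2 in muscle, beside 31% and 23.3% of all genes, with a median of 2.23. The glucose carrier SLC2A1 was at 5.04 ± 0.31, the thyroid hormone carrier SLCO1C1 at 7.89 ± 0.50, the amino acid carrier SLC7A5 at 4.77 ± 0.25 and LRP8 at 5.64 ± 0.26. The junction protein OCLN was at 2.37 ± 0.22. SLCO1C1 averaged at most 0.14 CPM per kb in the muscle groups and SLC38A5, another of the 9, at most 0.18. For both, near 0 in muscle, a difference was bound to be found. LRP8 was low there too, averaging 0.64, 0.18 and 0.21 CPM per kb in cattle, sheep and goat muscle. All of these are among the 9, so that count holds calls that were bound to be made. Against the list went SLC16A1, the lactate carrier MCT1 (-2.28 ± 0.37), and TFRC, the transferrin receptor (-2.11 ± 0.40), both of which many cell types make. Of 9 Wnt signalling genes tested of 15 listed, 4 were higher in brain, a count to set beside 31% of all genes, and none in muscle: WNT7A, LEF1 (4.50 ± 0.40), AXIN2 (2.74 ± 0.22) and APCDD1 (2.18 ± 0.25). WNT7A was at 0 in sheep muscle and at most 0.015 CPM per kb on average in the other muscle groups, so it was tested through brain only and a difference was bound to be found. LEF1 was low in muscle too, averaging 0.23, 1.32 and 0.27 CPM per kb in cattle, sheep and goat. The Wnt7 coreceptors RECK (-0.36 ± 0.29) and ADGRA2 (-0.23 ± 0.23) were not called, and with library totals alone they were at 0.60 and 0.71. Most of these genes are also made by neurons or glia, and their part in vessels was not measured.

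All 6 capillary genes of muscle and fat that were tested, of 12 listed, were higher in muscle, beside 23.3% of all genes, with a median of -4.11. Which cells of the tissue made these genes was not measured. MEOX2, a factor of muscle capillary endothelium, was at -8.38 ± 0.54 and the water channel AQP1 at -6.05 ± 0.37. MEOX2 averaged at most 0.081 CPM per kb in the brain groups, near 0 there, so a difference was bound to be found. CAV1, the coat protein of caveolae, was at -3.71 ± 0.29 and CAVIN2, another caveolar protein, at -2.88 ± 0.38. All 6 were still called with library totals alone, where 1252 of 12743 genes were higher in muscle. Under that scaling 12 of 14 barrier and 5 of 9 Wnt genes were higher in brain, beside 6243 of 12743 genes, so the Wnt count is near that background.

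Of 8 genes of pericytes and smooth muscle, which surround vessels, 3 were higher in muscle, beside 23.3% of all genes: ABCC9 (-3.68 ± 0.38), TAGLN (-1.99 ± 0.27) and MYH11 (-1.32 ± 0.29). PDGFRB (-0.90 ± 0.18, and 0.040 with library totals alone) and RGS5 (-1.02 ± 0.46) were not called. The summed level of the 8 was 77.7 to 192.2 CPM per kb in brain libraries and 235.1 to 552.7 in muscle, highest in sheep muscle. Of 3 lymphatic genes 2 were higher in muscle, LYVE1 (-5.96 ± 0.47) and FLT4 (-2.08 ± 0.51), beside 23.3% of all genes. LYVE1 averaged at most 0.42 CPM per kb in the brain groups, near 0 beside muscle, so a difference was bound to be found. The sum of the 3 was 0.63 to 4.58 in brain and 7.83 to 50.1 in muscle, with goat muscle C at 50.1 and its partners at 16.3 and 16.4. Since lymphatic vessels also make PECAM1, FLT4 and TIE1, these sums stand beside the muscle values, and their part in them was not tested. Of 5 leukocyte genes 2 were higher in brain, CSF1R and ITGAM, and 1 in muscle, CD163, beside 31% and 23.3% of all genes. Their sum was 38.1 to 106.4 in brain and 14.1 to 34.7 in muscle. CSF1R alone averaged 54.8 to 57.3 CPM per kb in the brain groups and so made up most of the sum there. PTPRC, which all leukocytes carry, had -0.11 ± 0.28, and 0.85 with library totals alone.

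Of 3 fibroblast genes tested, DCN and COL1A1 were higher in muscle and PDGFRA in brain, beside 23.3% and 31% of all genes. All 3 astrocyte genes tested, GFAP, SLC1A2 and AQP4, were higher in brain, beside the same 31%. In the muscle groups GFAP averaged at most 0.495 CPM per kb and SLC1A2 at most 0.33. For both, near 0 beside brain, a difference was bound to be found, so nothing is drawn from that count. No red cell gene passed the filter over species, where ALAS2 was the only one matched. In cattle alone an alpha-globin gene, HBA, was tested and was higher in brain, at 3.77, and the part of blood left in the tissue was not tested.

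Among 11398 genes with a symbol that passed the filter, the 5 whose log2 level over the 18 libraries was most like that of PECAM1 were EMCN (Pearson r = 0.970), CAV1 (0.968), EHD2 (0.964), PDHX (0.962) and RCSD1 (0.961). CDH5 came in place 6 (0.961), KDR in place 472 (0.867), VWF in 714 (0.837) and FLT1 in 1967 (0.671). For CLDN5 they were CD320 (0.852), ICAM3 (0.851), WNT6 (0.839), ACSBG1 (0.813) and RIC8A (0.810), with no pan-endothelial gene above TIE1 (0.402). These correlations are descriptions over 6 groups of 3 libraries, so the differences between tissues and species carry most of them.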

How the data were processed

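The authors deposited whole-number read counts of every gene for each library, on Ensembl gene models of each species. Per the submitters' processing notes, reads were trimmed with Trimmomatic 0.39, aligned with STAR 2.7.6 and counted with featureCounts, and ARS-UCD1.2 is the build named for cattle. Strandedness, the use of multiply placed reads and the sheep and goat builds were not given in the sources used here.

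Cattle genes were named by position against RefSeq genes of ARS-UCD2.0 (overlap of at least 0.5 of the union, second best at most 0.5 of the best), which named 16803 genes. Sheep and goat partners shared at least 2 pairs of neighbouring exon lengths or, between matched neighbours, at least 1 exon length. Of the 14140 matched genes, 10021 came from exon pairs in both species. CLDN5 was placed by its flanking genes.

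Counts were fitted with edgeR 4.0.16 (R 4.3.3; quasi-likelihood, robust, filterByExpr, TMM), with adjustment over all genes tested: 16428 in cattle, 15616 in sheep, 15825 in goat and 12743 across species, where exonic length entered the offset. All 10 genes passed the filter in each fit. The fits were tested on simulated data. Alternatives were RLE scaling, DESeq2 1.42.0, no filter, a replicate block, no length, exon-pair matches alone (with CLDN5 kept) and leaving out each library. Library totals alone, and leaving out sheep brain C with goat muscle C, were added after the data were seen. The members and lists were chosen with earlier results of these data known. Named from each list are up to 4 genes of lowest adjusted p, up to 2 against its median and genes not called where the text says so. OCLN, SLC38A5, PTPRB, ROBO4 and JAM2, and genes of the cell marker lists, were named after their values were seen. No sequence or promoter was analysed here.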

Additional observations from a re-analysis of the deposited data

Results flagged for a closer look

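In 4 cases a test of the difference itself found that brain minus muscle differed between 2 species. They were 2 of 10 genes between cattle and sheep and 2 of 10 between cattle and goat. Among all genes 20% and 13.6% were called in either direction there, so these counts are near background. For PECAM1 brain minus muscle was larger in cattle than in sheep by 1.79 (log2). Sheep muscle, at 109.4 CPM per kb, lay above cattle muscle, at 43.9, while brain differed by 0.47 ± 0.37. KDR followed the same pattern with 1.97, from 26.8 in sheep muscle and 6.12 in cattle muscle. The TIE1 value between cattle and goat was 1.17, with 13.1 in goat muscle and 5.58 in cattle muscle. For CLDN5 between cattle and goat it was 2.18, with goat muscle at 71.8 ± 43.0, above goat brain at 54.9 ± 22.8. Without goat muscle C the CLDN5 value was 1.6 (adjusted p = 0.113), and without cattle brain B 1.72 (adjusted p = 0.118). Only the KDR call held without any 1 library.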

How the results depend on the processing

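Over 2840 values of the 10 genes under alternatives, 2646 kept their direction and side of the threshold, 109 lost a call, 27 gained one and 58 turned sign (36 of these on leaving out 1 library), none of them a called value. The cause was not tested. With library totals alone the genes higher in muscle numbered 0 in cattle, 3 in sheep, 3 in goat and 2 over species. Signs turned there for cattle KDR (0.57), TEK (0.044) and ESAM (0.02), sheep TIE1 (0.62), goat FLT1 (0.43) and CLDN5 (0.45), FLT1 (0.50) and TIE1 (0.52) over species, and in brain FLT1 (-0.0099) and CLDN5 (-0.021) between cattle and goat and KDR (-0.040) between sheep and goat. All genes called higher in brain and in muscle then numbered 7334 and 2333 in cattle (5575 and 4162 with TMM), 7097 and 1415 in sheep (4456 and 2999), 7100 and 2023 in goat (4972 and 3669) and 6243 and 1252 over species (3946 and 2966). The interaction between cattle and goat gave 1115 positive and 592 negative (TMM 875 and 861), that between sheep and goat 794 and 255 (577 and 364), and cattle minus goat muscle 1569 and 2764 (2155 and 2196). Sheep minus goat muscle gave 1113 and 1914, with RLE 1349 and 1656 and with DESeq2 1475 and 1803 (TMM 1677 and 1372).

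The interaction between sheep and goat called 1 of the 10 with library totals alone and 1 with DESeq2, where all genes called numbered 1773, and 612 with exon-pair matches alone (941 as reported). With those matches 1941 genes were called between cattle and goat brain, 1596 between sheep and goat brain and 1961 between sheep and goat muscle, out of fewer genes tested, and in cattle minus goat brain FLT1 (-0.014) and CLDN5 (-0.0028) turned. CLDN5 was kept in that fit although it was placed by its flanking genes, so its own match was not held to exon pairs. With no length in the offset 2 of the 10 were called between cattle and goat brain and 2 between sheep and goat muscle. Of all 12743 genes, 1267 were then positive and 1374 negative in the former, and 1273 and 1370 in the latter. Signs turned for CLDN5 between cattle and sheep brain (0.024), FLT1 (-0.25) and MFSD2A (0.34) between cattle and goat brain, KDR between sheep and goat brain (-0.39), and FLT1 (-0.039) and TIE1 (0.093) between sheep and goat muscle. Without both sheep brain C and goat muscle C, 1 of the 10 was called in the interaction between cattle and goat (2889 of all genes, 1736 as reported), 2 in cattle minus goat muscle and 2 in sheep minus goat brain. With all libraries 34.1% and 18.8% of all genes were called in the last pair. The interaction of VWF between cattle and sheep (0.065), that of ESAM between sheep and goat (-0.94) and TIE1 in sheep minus goat muscle (0.023) turned.

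Against PECAM1 alone, CLDN5 was at 1.78, 2.10, -1.39, -2.18 and -0.42 in cattle brain, goat brain, and cattle, sheep and goat muscle, MFSD2A at 0.33, 0.87, -8.03, -9.81 and -8.26, and the mean of both at 1.05, 1.48, -4.71, -6.00 and -4.34. With a pseudocount of 1, MFSD2A was at 1.29 in goat brain and at -3.86, -5.35 and -4.45 in cattle, sheep and goat muscle, and the mean of both at -1.84, -3.04 and -1.57 there. With library totals alone MFSD2A was at -6.08 and the mean of both at -2.94 in cattle muscle, and at -7.89 and -4.32 in sheep muscle.

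Leaving out 1 library at a time gave 3 to 7 genes higher in muscle in goat and 1 to 2 higher in brain over species. With all libraries 23.2% and 31% of all genes were called in these directions. Interactions called 1 to 3 of the 10 between cattle and sheep (20% of all genes with all libraries), 0 to 3 between cattle and goat (1182 to 2819 of all genes) and 0 to 1 between sheep and goat (510 to 1315). Sheep minus goat brain called 1 to 2, cattle minus goat muscle 2 to 5 and sheep minus goat muscle 2 to 4. With all libraries 18.8%, 34.1% and 23.9% of all genes were called there in either direction. Crossing 0 were KDR in cattle (-0.27 to 0.15) and CLDN5 in goat (-0.76 to 0.19). Among interactions VWF (-0.44 to 0.062) and CLDN5 (-0.40 to 0.45) between cattle and sheep and ESAM (-0.52 to 0.42) between sheep and goat did. In cattle minus sheep brain KDR ran from -0.36 to 0.15. In cattle minus goat brain these were KDR (-0.33 to 0.37), FLT1 (-0.24 to 0.67), TIE1 (-0.18 to 0.20), ESAM (-0.54 to 0.20), CLDN5 (-0.40 to 0.45) and MFSD2A (-0.53 to 0.09). In sheep minus goat brain they were PECAM1 (-0.43 to 0.14), CDH5 (-0.42 to 0.57), KDR (-0.28 to 0.52), FLT1 (-1.02 to 0.10) and TEK (-0.38 to 0.63). In sheep minus goat muscle PECAM1 ran from -0.00083 to 0.72 and TIE1 from -0.18 to 0.12.

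Whether a letter stands for 1 animal is not stated, and the letters were not taken as pairs: deviations of same-letter libraries correlated at -0.026, 0.019 and -0.044 in cattle, 0.046, 0.040 and 0.036 in sheep and 0.179, -0.196 and -0.028 in goat, and only in sheep did every library correlate best with its own letter. With the letter as a replicate block goat ESAM was at -1.32 (adjusted p = 0.0588), not called, and no other tissue call of the 10 changed. All genes called higher in brain and in muscle were then 5523 and 4128 in cattle, 3922 and 2841 in sheep, 4829 and 3474 in goat and 3799 and 2967 over species. Depth limits MFSD2A in muscle, with 0 to 6 counts per library.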
